A study of Mus musculus with 4 samples.

Results

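Iron handling was examined through 9 genes in the mouse mammary tumour line 4T1: the ferritin subunits Fth1 and Ftl1, the transferrin receptor Tfrc, the metal transporters Slc11a2 and Slc40a1, the iron regulatory proteins Aco1 and Ireb2, the heme oxygenase Hmox1 and the lipocalin Lcn2. The members were the probe sets that the array's annotation pairs with only 1 of these symbols. There were 20 of them among 45101 probe sets, and they covered 8 of the 9 genes. Ftl1 had none, because each of its 3 probe sets also carries the name of a ferritin pseudogene, so no Ftl1 value is given. One-colour Affymetrix arrays had been hybridised with total RNA from CD44v8-10-positive 4T1 cells (2 samples) and CD44v8-10-negative 4T1 cells (2 samples), CD44v8-10 being a variant splice form of the adhesion receptor CD44. Both groups were the same line, grown in RPMI medium with bovine serum under normoxia and picked by hand, with no gene altered in either. How CD44v8-10 was scored, and whether the 2 samples of a group were separate cultures, is not given in the labels, so the p-values cover the scatter among these 4 arrays and no more, and that scatter may be technical.

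Cells take up iron mostly as transferrin bound to the receptor encoded by Tfrc, and Slc11a2 (DMT1) then moves the iron out of the endosome. Iron that is not used is stored in ferritin shells built of heavy (Fth1) and light (Ftl1) chains, or leaves through Slc40a1 (ferroportin), and Hmox1 releases iron from heme. When iron is scarce the iron regulatory proteins (Aco1 and Ireb2) bind hairpins in the mRNAs, which stabilises the Tfrc transcript and blocks translation of ferritin and ferroportin. A microarray reads only the mRNA, so the translational arm of this control is not seen in these values.

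No iron gene was called different between CD44v8-10-positive and CD44v8-10-negative cells, although with 2 arrays a group the intervals of some reached more than 2-fold. Of the 8 genes with a probe set, 7 were bright enough to be tested, and 0 passed an adjusted p of 0.05 in either direction (limma, two-sided, Benjamini-Hochberg over 11956 genes), where 0.0753% of all genes tested passed, all of them higher. At an unadjusted p under 0.05 there were also 0 of the 7, beside 4.45% of all genes tested. Genes of iron uptake and export (Tfrc, Slc11a2, Slc40a1) and Hmox1 had fitted differences above 0, by 1.28-fold to 1.45-fold. Fth1, Aco1 and Ireb2 had differences below 0. The median log2 difference of the 7 genes was 0.35, beside 0.03 over all genes tested. Regardless of sign the median was 0.37, beside 0.17 over all genes tested, and the median standard error was 0.25 for the 7 genes and 0.24 for all. Signals below are intensities after quantile normalization, log2 differences are positive minus negative on the log2(signal + 16) scale, and probe sets of a gene are numbered from the brightest. Differences of dim probe sets are understated on that scale.

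**Figure D1:**
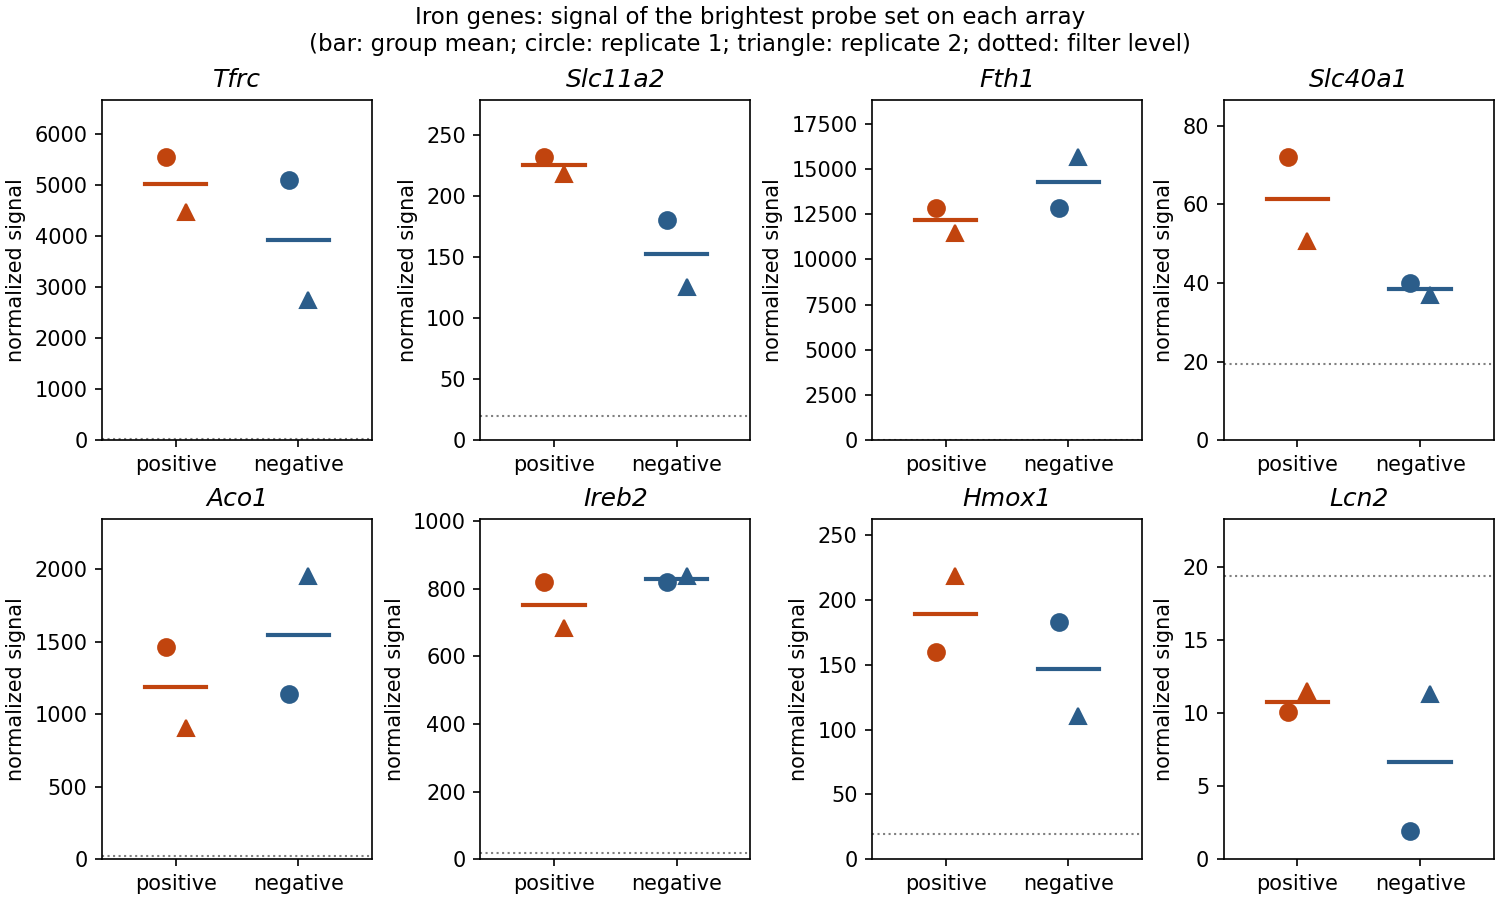
Normalized signal (vertical axis, linear from 0) of the brightest probe set of each of 8 genes in the 2 CD44v8-10-positive and the 2 CD44v8-10-negative arrays, with group means as bars and the filter level of 19.4 dotted. Slc11a2 and Slc40a1 are the genes whose positive arrays both lie clearly above both negative arrays, and Lcn2 lies below the filter level on every array.

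The arrays as a whole limit what these genes can show. The trimmed mean of the deposited intensities was 237 and 219 for CD44v8-10-positive cells, against 196 and 345 for CD44v8-10-negative cells, so negative replicate 2 was the brightest array before normalization. Without any scaling the median log2 difference of the tested genes was -0.15, and the members' unscaled differences are to be read against that shift. All 7 epithelial markers looked up were above the filter level. Of these, 4 were higher in positive cells and made up 4 of the 9 genes called among all tested: the junction proteins Cldn7 (log2 difference 2.31, limma adjusted p 0.000639) and Cldn3 (1.96, adjusted p 0.000851), the basal keratin Krt14 (1.97, adjusted p 0.00547) and the adhesion protein Epcam (1.34, adjusted p 0.0118). For Krt8, Krt18 and Cdh1 the groups overlapped. The 7 markers summed to 29784 and 31595 in positive samples, against 22389.4 and 27130.9 in negative samples, and their part in the iron genes' values was not tested.

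Tfrc, which carries transferrin-bound iron into the cell, was the member with the largest spread between arrays of 1 group. Its brightest probe set had signals of 5559.95 and 4470.2 in the positive samples, against 5107.2 and 2752.4 in the negative samples. Negative replicate 2 was the lowest array, while negative replicate 1 lay between the positive ones, so the groups overlapped. The fitted log2 difference was 0.41 ± 0.24 (SE), or 1.33-fold with a 95% interval of 0.926 to 1.91 (limma adjusted p 0.985). Without negative replicate 2 it was -0.035, without negative replicate 1 it was 0.85 (limma adjusted p 0.207), and without positive replicate 1 it was 0.25, as it was with no scaling. The mean of the tested Tfrc probe sets gave 0.68.

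The other Tfrc probe sets showed the same low array. Probe set 2 had 2407.1 and 1794.2 in positive samples, against 2237.9 and 746.6 in negative samples. Probe set 3 had 825 and 718 in positive samples, against 746 and 201 in negative samples, a log2 difference of 0.95 ± 0.46 (limma adjusted p 0.959 over 27022 probe sets). A further 3 Tfrc probe sets belong to the manufacturer's control set for RNA quality and read the 3' end, the middle and the 5' end of the transcript. They were not tested, and their log2 differences were 0.70, 0.92 and 0.81. In all 6 probe sets negative replicate 2 was lowest and positive replicate 1 highest. Against negative replicate 1 alone, the mean of the positive arrays differed by -0.17 to 0.10 over the 6.

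That gap between the 2 negative arrays was wide for this data set. On the log2 scale it was 0.89, 1.56 and 1.81 for the 3 tested Tfrc probe sets, where the median absolute gap over all tested probe sets was 0.25, and 4.52%, 0.333% and 0.104% of the tested probe sets had a wider one. The 2 positive arrays were 0.31, 0.42 and 0.20 apart in the same probe sets. In the deposited values, before any scaling, the brightest probe set read 5532.9 and 4037.7 in the positive samples, against 4287.9 and 3673.9 in the negative samples, so negative replicate 2 was lowest there too although that array was the brightest overall.

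The control probe sets also give a ratio along the transcript, which for Tfrc is made from the same low signals and is no separate measure of RNA quality. The ratio of 3' to 5' signal of the Tfrc control probe sets, in deposited values, was 2.05 and 2.21 in the positive samples, against 1.82 and 3.02 in the negative samples. Negative replicate 2 was highest in this ratio and lowest in Tfrc signal. The same ratio for actin was 1.20 and 1.35 in the positive samples, against 1.17 and 1.25 in the negative samples, so positive replicate 2 was highest there. For Gapdh the ratio was 0.782 and 0.783 in the positive samples, against 0.778 and 0.839 in the negative samples, with negative replicate 2 highest. After quantile normalization the Gapdh ratio was 0.767 and 0.803 in the positive samples, against 0.787 and 0.793 in the negative samples, and negative replicate 2 was no longer highest. The normalized actin ratio was 1.21 and 1.30 in the positive samples, against 1.16 and 1.31 in the negative samples, with negative replicate 2 now highest. For Tfrc the normalized ratio was 2.01 and 2.27 in the positive samples, against 1.76 and 3.13 in the negative samples. The part of RNA quality in the Tfrc values was not tested.

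**Figure D2:**
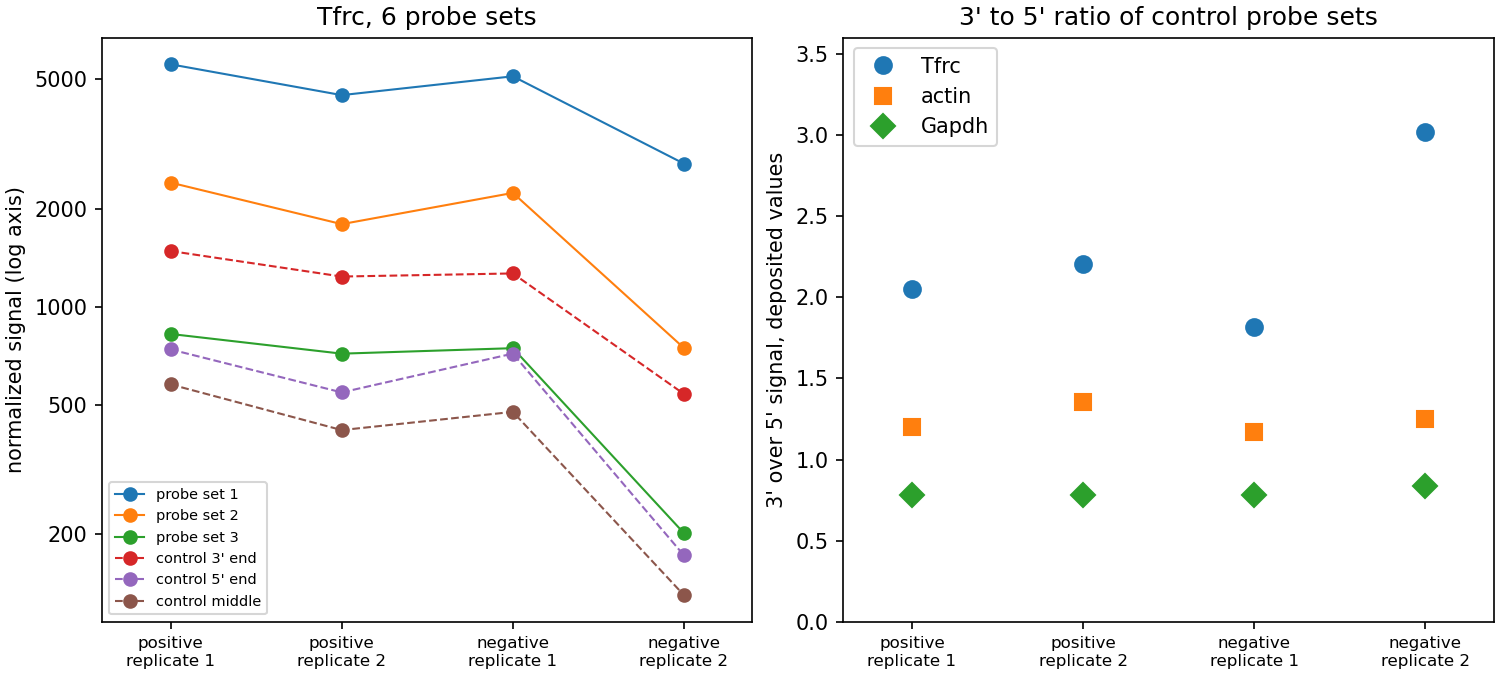
Left, normalized signal (log axis) of the 6 Tfrc probe sets on each array, with the manufacturer's control probe sets dashed and lines joining the values of 1 probe set. Right, ratio of 3' to 5' deposited signal for the Tfrc, actin and Gapdh control probe sets. Negative replicate 2 is lowest for every Tfrc probe set and highest, at 3.02, for the Tfrc ratio.

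The start of Tfrc is printed because it is the member with the widest swing and because the promoter of the human gene is known to bind hypoxia-inducible factor. The run covers 250 bases before the annotated start and 15 after it, on the plus strand at chr16:32608646-32608910 of GRCm38.p6, from RefSeq, with the ACGTG core of a hypoxia response element in capitals.
Tfrc: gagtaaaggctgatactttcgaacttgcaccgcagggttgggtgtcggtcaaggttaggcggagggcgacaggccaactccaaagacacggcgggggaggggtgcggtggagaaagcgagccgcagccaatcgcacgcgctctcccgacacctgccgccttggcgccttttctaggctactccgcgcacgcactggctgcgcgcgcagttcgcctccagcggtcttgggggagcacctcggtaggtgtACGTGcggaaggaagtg
RefSeq start windows of 300 bases were found for 6 of the 9 genes (8 windows, since Fth1 and Tfrc have 2 each). ACGTG, searched on both strands, occurred in both Tfrc windows, which overlap and hold the same site, and in 0 windows of Fth1, Ftl1, Aco1, Ireb2 and Lcn2. It was held by 19.6% of all 32851 mouse windows. The Tfrc core began at position -2 from the start of the first window's transcript, so it spanned that annotated start. From the start used for the second window it began at -228. Whether it corresponds to a site in the human promoter was not examined. The first 5 loop letters of an iron-responsive element, CAGTG, searched on the transcribed strand in the 50 bases after the start, occurred in 0 of the 8 windows and in 7.2% of all windows. These matches describe letters in a short window and say nothing of binding. CAGTG was searched in those 50 bases alone and in no later part of a transcript. Its absence there does not show that a transcript lacks an iron-responsive element.

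Slc11a2, which exports iron from the endosome and also takes up iron at the cell surface, had the lowest unadjusted p of the members. Its brightest probe set had signals of 232 and 218 in the positive samples, against 180.04 and 125 in the negative samples. Both positive arrays lay above both negative ones, and negative replicate 2 was again the lowest. The log2 difference was 0.53 ± 0.25 (SE), or 1.45-fold with a 95% interval of 0.998 to 2.10 (unadjusted p 0.0512, limma adjusted p 0.985). It was 0.30 without negative replicate 2, 0.77 without negative replicate 1 and 0.31 with no scaling. Probe set 2, which stands for the gene when identifiers ending in _x_at, _s_at or _a_at are left out, gave 0.29.

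The other 3 Slc11a2 probe sets also had differences above 0, with unequal sizes. Probe set 3 had 143 and 103 in positive samples, against 89.97 and 56.9 in negative samples, without overlap and with a log2 difference of 0.65 ± 0.30 (limma adjusted p 0.959). Probe set 2 had 90.8 and 156 in positive samples, against 104 and 85.8 in negative samples, and probe set 4 had 38.8 and 28.1 against 25.6 and 34.1. In these the groups overlapped, at differences of 0.29 and 0.11. Slc11a2 transcripts with different ends are known, but which of them each probe set reads was not analysed here.

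Ferritin heavy chain, Fth1, the subunit that oxidises iron for storage, was read by 2 probe sets. The brighter one had signals of 12843.6 and 11464.6 in the positive samples, against 12843.6 and 15676.7 in the negative samples. Positive replicate 1 and negative replicate 1 were equal, and negative replicate 2 was highest. The log2 difference was -0.23 ± 0.13 (SE), or 0.855-fold with a 95% interval of 0.704 to 1.04 (limma adjusted p 0.985). It was -0.082 without negative replicate 2, -0.14 without positive replicate 2 and -0.37 without negative replicate 1. Scaling the arrays to a common trimmed mean gave -0.0083, and centring them on their median -0.12. Its second probe set had 10819.7 and 10500 in positive samples, against 12222.7 and 10332.8 in negative samples, a difference of -0.076, which turned to 0.067 under the trimmed-mean scaling. Here negative replicate 2 was lowest, so the 2 probe sets ranked the negative arrays in opposite orders. Highest and lowest arrays differed by 1.37-fold in one and 1.18-fold in the other, where the figures were 1.22-fold for Ireb2 and 2.02-fold for the brightest Tfrc probe set.

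Slc40a1, the exporter that releases iron from cells, had dim signals. Its brighter probe set had 72.2 and 50.6 in the positive samples, against 40.1 and 36.9 in the negative samples. Its second had 50.02 and 47.2 in positive samples, against 27.4 and 27.9 in negative samples. Both probe sets had both positive arrays above both negative arrays, and in the second the arrays of a group were nearly equal. The log2 differences were 0.49 ± 0.33 (SE) in the gene fit, or 1.41-fold with a 95% interval of 0.859 to 2.30 (limma adjusted p 0.985), and 0.57 ± 0.33 for the second probe set (limma adjusted p 0.959). The gene's difference was 0.29 without positive replicate 1 and 0.69 without positive replicate 2. Without scaling the brighter probe set overlapped between the groups, at a difference of 0.39, while the second did not, at 0.48. With a pseudocount of 64 in place of 16 the difference of the brighter probe set was 0.29. Macrophages, which recycle iron from red cells, are known for high ferroportin. The signals of 11 macrophage markers summed to 578 and 754 in the positive samples, against 511 and 477 in the negative samples. Cd14 had the largest signals among them, 226 and 259 in positive samples, against 188 and 180 in negative samples. Dim marker sums of neutrophils and fibroblasts also separated, but erythroid sums overlapped, at 81.3 and 56.1 in positive samples, against 127 and 51.3 in negative samples. Neutrophil markers summed higher in positive samples, largely through Ngp. Fibroblast markers summed lower, at 167 and 150, against 196 and 191 in negative samples. Among them Pdgfra had 47 and 33.6 in positive samples, against 108 and 76.6 in negative samples. Pdpn and Col1a2 had log2 differences above 0, at 0.37 and 0.045. Neither sum thus describes its marker list as a whole. Of the 11 macrophage markers 7 were above the filter level and 0 were called, and Ptprc, Itgam, Lyz2 and Tyrobp were below it. Their part in the Slc40a1 values was not tested, and in RNA of a whole sample fewer cells of a type and less RNA per cell cannot be told apart.

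**Figure D3:**
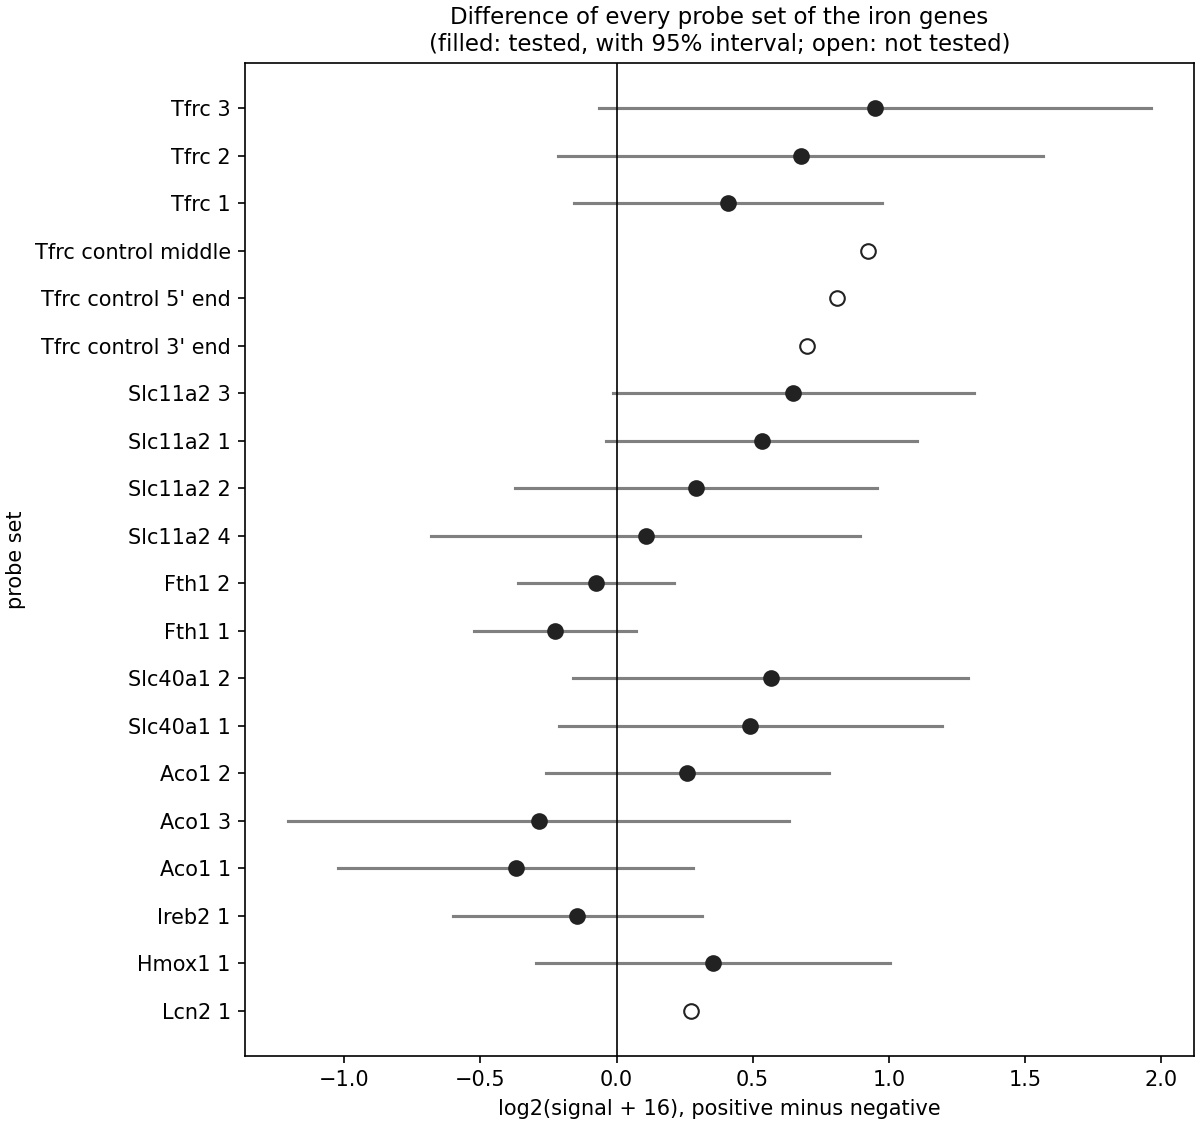
Log2 difference, positive minus negative, of each of the 20 probe sets (horizontal axis; 0 means no difference), by gene and numbered from the brightest. Filled points were tested and carry the 95% interval from the fit over all probe sets, each of which includes 0, and open points (3 Tfrc controls and Lcn2) were not tested.

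Both iron regulatory proteins had fitted differences below 0, but the probe sets of Aco1 lay on both sides of it. Aco1, the cytosolic aconitase that turns into an RNA-binding regulator when it loses its iron-sulfur cluster, was read by 3 probe sets. The brightest, of a less specific type (identifier ending in _x_at), had 1465.9 and 906 in the positive samples, against 1142 and 1955.7 in the negative samples. Positive and negative arrays alternated, and the log2 difference was -0.37 ± 0.28 (SE), or 0.773-fold with a 95% interval of 0.509 to 1.17 (limma adjusted p 0.985). It was -0.71 without positive replicate 1 and -0.75 without negative replicate 1, but -0.028 without positive replicate 2 and 0.013 without negative replicate 2, and the mean of the 3 probe sets gave -0.13. Probe set 2 had 342 and 434 in positive samples, against 303 and 336 in negative samples, without overlap and with a difference of 0.26 ± 0.23 (limma adjusted p 0.959), though under each of the other 3 scalings the groups overlapped. Probe set 3 had 25.6 and 12.5 in positive samples, against 18.7 and 34.8 in negative samples, so 2 of its arrays lay below the filter level of 19.4.

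Ireb2, the second iron regulatory protein, which is degraded when iron is plentiful, had 1 probe set. Its signals were 819.1 and 686 in the positive samples, against 819.9 and 839.7 in the negative samples. The groups did not overlap, but positive replicate 1 and negative replicate 1 were less than 1 unit apart, and under the other 3 scalings the groups did overlap. The log2 difference was -0.14 ± 0.20 (SE), or 0.905-fold with a 95% interval of 0.667 to 1.23 (limma adjusted p 0.985). It was -0.018 without positive replicate 2 and -0.27 without positive replicate 1, with no scaling it was -0.34, and with arrays centred on their median -0.26.

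Hmox1, the inducible enzyme that opens the heme ring and frees its iron, had 1 probe set as well. Its signals were 159.8 and 219 in the positive samples, against 183 and 111 in the negative samples. Negative replicate 1 lay between the positive arrays, so the groups overlapped. The log2 difference was 0.35 ± 0.28 (SE), or 1.28-fold with a 95% interval of 0.839 to 1.95 (limma adjusted p 0.985), and it was 0.027 without negative replicate 2 and 0.14 without positive replicate 2. Without negative replicate 1 it was 0.68, without positive replicate 1 it was 0.56, with no scaling it was 0.13, and with arrays centred on their median 0.21.

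Lcn2, a secreted lipocalin that binds iron-carrying siderophores and is made by inflamed epithelia and neutrophils, was at background level on every array. Its single probe set read 10.1 and 11.5 in the positive samples, against 1.95 and 11.4 in the negative samples. All 4 values lay below the filter level of 19.4, so it was not tested and no fold is given. Of 8 neutrophil markers with a probe set, 7 were below the filter level too, S100a8 and S100a9 among them. Ngp, a neutrophil granule protein, was above it on its mean, with 33.6 and 64.2 in positive samples, against 9.85 and 21 in negative samples. The 8 summed to 90.2 and 120.3 in positive samples, against 78.7 and 66.7 in negative samples, a difference that largely followed Ngp.

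Groups that did not overlap were about as frequent among the members as elsewhere. In the gene fit the 3 genes without overlap were Slc11a2, Slc40a1 (both higher) and Ireb2 (lower), 3 of 7, beside 32.3% of all genes tested (18.5% higher and 13.8% lower). By probe set it was 6 of the 16 tested, 5 higher and 1 lower, beside 33.2% of all probe sets tested (16.5% higher and 16.7% lower). Of these 16 probe sets 0 passed the adjusted threshold of limma, beside 0.0333% of all, and 0 had an unadjusted p under 0.05, beside 4.61%. Of the 17 members outside the control set, 16 passed the filter on dim probe sets.

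**Figure D4:**
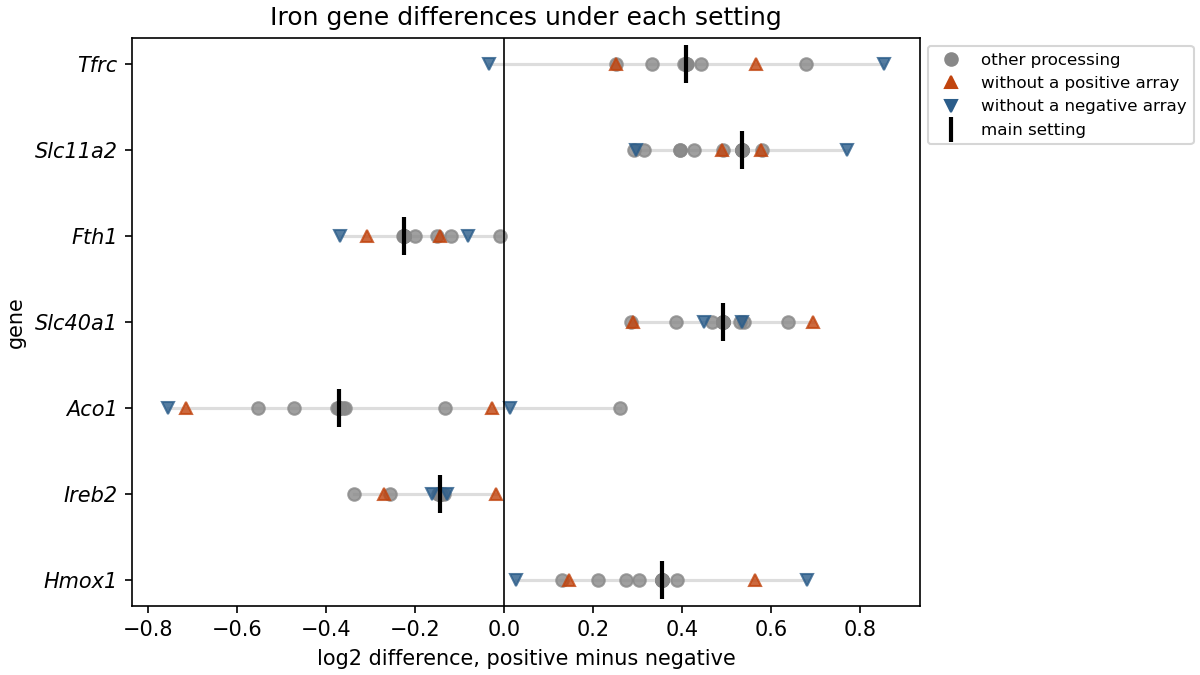
Log2 difference, positive minus negative, of the 7 tested genes under the main setting (black bar) and under each other setting (points), with settings that leave out 1 array shown as triangles. Slc11a2, Slc40a1 and Hmox1 stay above 0 and Fth1 and Ireb2 below 0 throughout, while Tfrc and Aco1 reach the other side, at -0.035 and 0.26.

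The wider iron network was read through 80 further genes, of which 57 were tested. None was called by limma (0 genes), and 0 had an unadjusted p under 0.05. Their log2 differences lay above 0 for 27 and below 0 for 30, with a median of -0.0030, beside 54.3% above 0 over all genes tested. The groups did not overlap for 13 of the 57, with 3 higher and 10 lower in positive cells, beside 32.3% of all genes tested (18.5% higher and 13.8% lower). Since no gene of a list passed, each list is illustrated by its brightest gene.

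Iron uptake and transport had 6 of 14 tested genes above 0 and a median log2 difference of -0.081. Its brightest gene, the iron chaperone Pcbp1, had 4441.5 ± 296 in positive and 4318.4 ± 150 in negative cells (SD, n = 2 each). Iron regulation had 3 of 8 above 0 and a median of -0.16. Its brightest gene, the oxygen-regulated factor Hif1a, had 3261.1 ± 181 in positive and 3998.5 ± 14.4 in negative cells (SD, n = 2 each; log2 difference -0.29 ± 0.15 SE). Heme synthesis had 5 of 7 above 0 and a median of 0.086, and Alad, which forms the porphobilinogen ring, had 901 ± 32.9 in positive and 899 ± 50.4 in negative cells. Heme breakdown and export had 2 of 9 above 0 and a median of -0.073, and Hmox2, the constitutive heme oxygenase, had 1193.3 ± 133 in positive and 1193.8 ± 89.4 in negative cells. Iron-sulfur cluster assembly had 11 of 19 above 0 and a median of 0.062, and the mitochondrial chaperone Hspa9 had 5766.3 ± 567 in positive and 5483.7 ± 474 in negative cells. The differences of all 5 of these genes lay within a log2 value of 0.3 of 0.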

How the data were processed

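The authors deposited linear intensity values, 1 per probe set and array, from 0.1 to 22695.6; the submitters' processing notes name GCOS without a version or role, while how probe sets were summarised or scaled is not given in the sources used here. Samples were grouped by their titles. After quantile normalization between arrays, log2(value + 16) was taken, the 64 control probe sets were set aside, and probe sets with a mean below the 40th percentile (log2 5.15, signal 19.4) were left out. Names came from the 2016 platform annotation (34945 probe sets with 1 symbol, 932 with several, 9160 with none). The brightest probe set stood for a gene. Positive and negative cells were set against each other with limma 3.58.1 in R 4.3.3 (eBayes with trend, two-sided tests, adjustment after Benjamini and Hochberg across every gene fitted, threshold 0.05), and every probe set above the filter was fitted likewise. The procedure was tested on simulated data with changes larger than any difference of the iron genes. That test does not show the power to find differences of their size. Members, lists and settings were chosen with earlier results of these data known. All members are named, and from each other iron list the brightest gene where no gene had an unadjusted p under 0.05. Alternatives covered scaling, pseudocount, filter, probe set choice, prior, omission of each array in turn, and a block for the replicate number. The number of arrays limits the precision.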

Additional observations from a re-analysis of the deposited data

How the results depend on the processing

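Over 124 values of the 7 tested iron genes under other settings, 121 kept their direction, 0 passed the adjusted threshold (lowest limma adjusted p 0.207) and 3 changed direction: Aco1 with less specific probe sets left out (0.26, from another probe set), and Tfrc and Aco1 without negative replicate 2. Settings of the filter, the prior, the replicate block and the fit of every probe set cannot change a gene's log2 difference. Their values kept direction by design, so the count of kept directions overstates how far direction was tried. Leaving out each array in turn gave -0.035 to 0.85 for Tfrc, -0.75 to 0.013 for Aco1, -0.37 to -0.082 for Fth1, -0.27 to -0.018 for Ireb2, 0.29 to 0.69 for Slc40a1, 0.30 to 0.77 for Slc11a2 and 0.027 to 0.68 for Hmox1. No iron gene was called higher or lower (limma, 0 genes) in any of these settings. Probe sets called less specific here are those with identifiers ending in _x_at, _s_at or _a_at. That grouping used the ending alone, and whether a probe set reads other genes was not checked. Without these probe sets Fth1 had none to test. Of all genes, 9 were called higher under the main settings, 20 with arrays centred on their medians, 3 with no scaling, 3 with no filter, 5 without the less specific probe sets, 2 without the intensity trend, and 6 to 18 with 1 array left out. Called lower were 0 under the main settings, 5 with arrays centred on their medians and 0 to 1 with 1 array left out. With the replicate number as a block, 15 genes were called higher and 3 lower; among the members Tfrc had an unadjusted p of 0.0207 (limma adjusted p 0.644) and Slc11a2 one of 0.0292 (adjusted p 0.714). Of the 124 values 7 had an unadjusted p under 0.05: these 2, Aco1 without positive replicate 1 (0.0461), and without negative replicate 1 Tfrc (0.000288), Fth1 (0.00564), Aco1 (0.0163) and Slc11a2 (0.0313). Arrays of the same number shared deviations only weakly (correlation 0.116 over 11956 genes), and the labels give them nothing in common but the number. The cause of these shifts was not tested. Signals near the filter level, in Slc40a1, Aco1 probe set 3 and Lcn2, are limited by background.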

Other observations

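Of the 57 tested iron genes outside the 9, 13 had groups that did not overlap, with 10 differences below 0 and 3 above. Over all genes tested the share without overlap was 32.3% (18.5% higher and 13.8% lower). Overlap of these genes under the other scalings was not examined. Those described here were picked after their values were seen, and none of the 13 passed limma over all genes. Ncoa4, the receptor that delivers ferritin to the lysosome for breakdown, had signals of 1306.8 and 908 in positive samples, against 1485.1 and 1443.7 in negative samples, a log2 difference of -0.42 ± 0.21 (SE, limma adjusted p 0.985). Slc48a1, which carries heme out of the lysosome, had 239.5 and 254 in positive samples, against 310.1 and 314.6 in negative samples, at -0.32 ± 0.22. Nfe2l2, the factor NRF2 that activates Hmox1 and ferritin genes, had 1036.9 and 924 in positive samples, against 1096.7 and 1264.4 in negative samples, at -0.26 ± 0.20. Bach1, the heme-sensing repressor of the same genes, had 486 and 382 in positive samples, against 509 and 529 in negative samples, at -0.26 ± 0.22. On these arrays the signals of Nfe2l2 and Bach1 were lower in the positive samples by less than 1.3-fold, while Hmox1 overlapped between the groups. Neither Nfe2l2 nor Bach1 was called different (limma adjusted p 0.985 for each), and the interval of each difference included 0. Their part in the Hmox1 values was not tested. The 3 above 0 were Iscu, the scaffold on which iron-sulfur clusters are built, Isca2, which acts in mitochondrial iron-sulfur cluster assembly, and Hamp, the hormone hepcidin. Iscu had 973 and 893 in positive samples, against 812 and 678 in negative samples, at 0.32 ± 0.20. Isca2 had 511 and 505 in positive samples, against 481 and 482 in negative samples, at 0.074 ± 0.21. Hamp, near the filter level of 19.4, had 38.5 and 31.4 in positive samples, against 23.8 and 27.8 in negative samples, at 0.28 ± 0.37.

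Cpox, an enzyme of heme synthesis that was also picked after its values were seen, differed mostly in 1 array, with 369 and 342 in positive samples, against 324 and 909 in negative samples. The array that stood apart was negative replicate 2, the one with the lowest Tfrc signal.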
